A study of Mus musculus with 4 samples.

Results

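Macrophages grown from the bone marrow of Sema6D-/- mice were compared with wild-type (WT) macrophages after 4 h with LPS, across genes and with 1 library on each side. Protein-coding genes on the 19 autosomes were included when they reached 1 FPKM (fragments scaled to transcript length and to a divisor for each library) in either library. This gave 9488 genes, of 19603 protein-coding autosomal genes and 24235 named genes of any kind in the deposited tables. The study holds 4 poly(A) mRNA libraries from C57BL/6 mice aged 7 weeks, WT and Sema6D-/-, each without LPS and with LPS at 100 ng/ml for 4 h. All were grown from bone marrow cells with M-CSF, the growth factor that drives macrophage differentiation. The labels give neither the deleted part of Sema6d nor the number of mice behind a library. With 1 library in each group there is no replicate against which a difference could be checked, and every value describes these libraries alone.

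LPS, a cell wall component of Gram-negative bacteria, is sensed by TLR4 together with CD14 and MD-2. TLR4 signals through MyD88 to NF-kB and MAP kinases, which drive cytokines such as TNF and IL-6, and through TRIF to interferon-beta, which then induces interferon-stimulated genes. Sema6D is a transmembrane semaphorin that binds class A plexins and can also signal back into the cell that carries it. In macrophages it has been studied together with mTOR, PPARg and lipid uptake in alternative activation.

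The label of the knockout was not borne out by the level of its gene summed over transcripts. Sema6d was low everywhere and higher in the libraries labelled Sema6D-/-, at 0.592 FPKM (59 estimated fragments) with LPS against 0.219 FPKM (20 fragments) in WT. Without LPS it was at 0.563 FPKM against 0.304 FPKM. At under 1 FPKM it is not among the 9488 genes. The signal fell on different Sema6d transcripts under each label. With LPS the transcript highest in WT was at 0.168 FPKM there and at 0 under the label Sema6D-/-. The transcript highest under that label was at 0.590 FPKM there and at 0 in WT. Reads from parts of the gene that a deletion leaves in place would count towards these values, and which part was deleted is not given in the sources used here. All directions below are therefore those of the library labelled Sema6D-/-, and "higher" and "lower" mean relative to WT with LPS unless another library is named.

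The libraries also differed in sex-linked genes. Xist was at 21.4 FPKM in WT with LPS and 0.0306 FPKM in the library labelled Sema6D-/-, while the Y-linked Eif2s3y was at 0 and 50.4 FPKM. Sex and genotype label therefore cannot be told apart. Estimated depth was 17.3 to 23.6 M fragments per library in protein-coding genes. Macrophage markers were abundant on both sides. Lyz2, encoding lysozyme, was at 16642 FPKM in WT and 19821 FPKM in the library labelled Sema6D-/-, Csf1r, the M-CSF receptor, at 685 and 951 FPKM, and Adgre1, encoding F4/80, at 1118 and 918 FPKM. The lowest macrophage marker on the ratio scale was Itgam (CD11b), at 538 and 265 FPKM, and 68.1% of its 31-base words also occur in another annotated gene.

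Ratios are log2((FPKM + 1)/(FPKM + 1)), the library labelled Sema6D-/- over WT, which understates the ratio of genes with low values. A gene was called apart at 2-fold, a log2 ratio of 1 or more or -1 or less. By this rule 531 genes (5.6%) were apart, 269 (2.84%) higher and 262 (2.76%) lower, and 82.9% of the genes lay within 1.5-fold. The median over all 9488 genes was 0.04, with the 5th percentile at -0.72 and the 95th at 0.80. Just inside the rule were Cyp4f18 at -1.00033 and Cacnb3 at 1.00232, and just outside it Por at -0.999711 and Usp12 at 0.999813.

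The balance of directions varied with the level of the gene and with the scale. Among the 876 genes with a mean of 100 FPKM or more, 6.28% were higher and 1.48% lower. Among the 2863 genes between 0.5 and 5 FPKM, 2.58% were higher and 3.67% lower. The divisor behind FPKM was estimated at 20.1 M fragments in WT and 16.6 M in the library labelled Sema6D-/-. Fragments estimated in protein-coding genes were 22.1 M and 21.3 M. FPKM summed over protein-coding autosomal genes to 493281 in WT and 590977 in the library labelled Sema6D-/-. With both scaled to a common total over protein-coding genes, the median over all genes shifted by -0.22, and 153 genes were higher and 358 lower. Higher genes then made up 29.9% of those called, against 50.7% on the deposited scale.

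**Figure D1:**
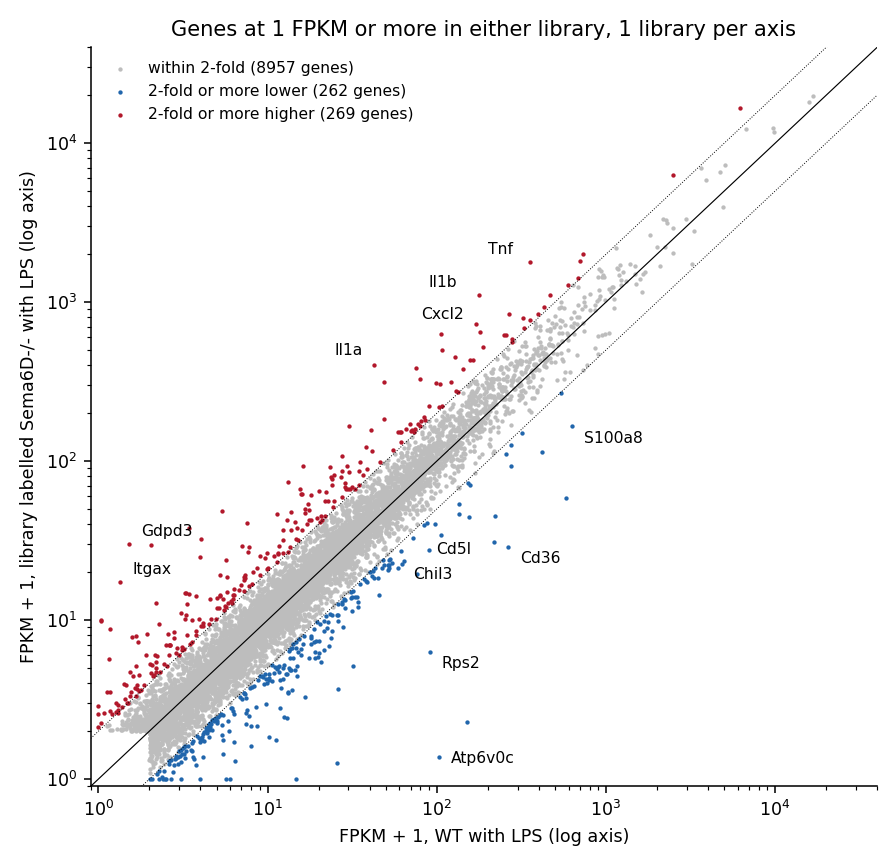
FPKM + 1 of 9488 genes in WT with LPS (horizontal, log axis) and in the library labelled Sema6D-/- with LPS (vertical, log axis), 1 point per gene, with the line of equal values solid and 2-fold lines dotted. The 269 higher genes (red) reach to the top of the range, with Tnf at 357 and 1794 FPKM, while the 262 lower genes (blue) include Atp6v0c at 102 and 0.381 FPKM.

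Many inflammatory cytokine genes were higher in the library labelled Sema6D-/-. Of 24 measured, 12 were higher and 1 was lower, where 2.84% and 2.76% of all genes were. These shares of all genes are the background to every list count with LPS given below. The median log2 ratio of the cytokine genes was 0.92 against 0.04 over all genes. On the common total 11 were higher. The genes past 2-fold included the classic products of LPS-stimulated macrophages, Tnf, Il1a, Il1b and Il6, and 3 subunits of the IL-12 family, Il12a, Il12b and Il27.

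Il1a, which encodes the alarmin IL-1 alpha, was at 0.146 FPKM in WT and 1.21 FPKM in the library labelled Sema6D-/- without LPS, and at 41.4 and 403 FPKM with LPS. Its log2 ratio with LPS was 3.25. For Il1b the levels were 7.88 and 26.1 FPKM without LPS and 177 and 1110.3 FPKM with LPS, a log2 ratio of 2.64. Both IL-1 genes stood highest in the library labelled Sema6D-/- with LPS, and both also had the higher FPKM under that label without LPS.

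Tnf, the early inflammatory cytokine, was at 31.5 and 54.2 FPKM without LPS and at 357 and 1794 FPKM with LPS. The log2 ratio with LPS was 2.33, and without the added 1 it was 2.33 as well, with a 95% exact interval of 2.30 to 2.36. Such intervals come from estimated fragments and cover counting error only. Il6, the inducer of the acute phase response, was nearly silent without LPS, at 0.759 and 1.28 FPKM, and reached 169 and 732 FPKM with LPS, a log2 ratio of 2.11. For these genes counting error was small against the difference between the libraries.

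Of the IL-12 family, Il12b (the p40 subunit) was at 25.97 FPKM in WT and 78.3 FPKM in the library labelled Sema6D-/- with LPS, a log2 ratio of 1.56. Il12a (p35) was at 0.923 and 7.18 FPKM (2.09), and Il27 at 178 and 643 FPKM (1.85). The other higher cytokine genes had ratios between 1.03 for Il18 and 1.67 for Tnfsf9. The exception in direction was Il10, the main anti-inflammatory cytokine of macrophages. It was at 13.5 and 5.26 FPKM without LPS and at 96.7 and 39.1 FPKM with LPS, a log2 ratio of -1.28 with LPS and -1.21 without. LPS libraries were above unstimulated ones in both genotypes for Il10, and the library labelled Sema6D-/- was the lower one in each pair.

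**Figure D2:**
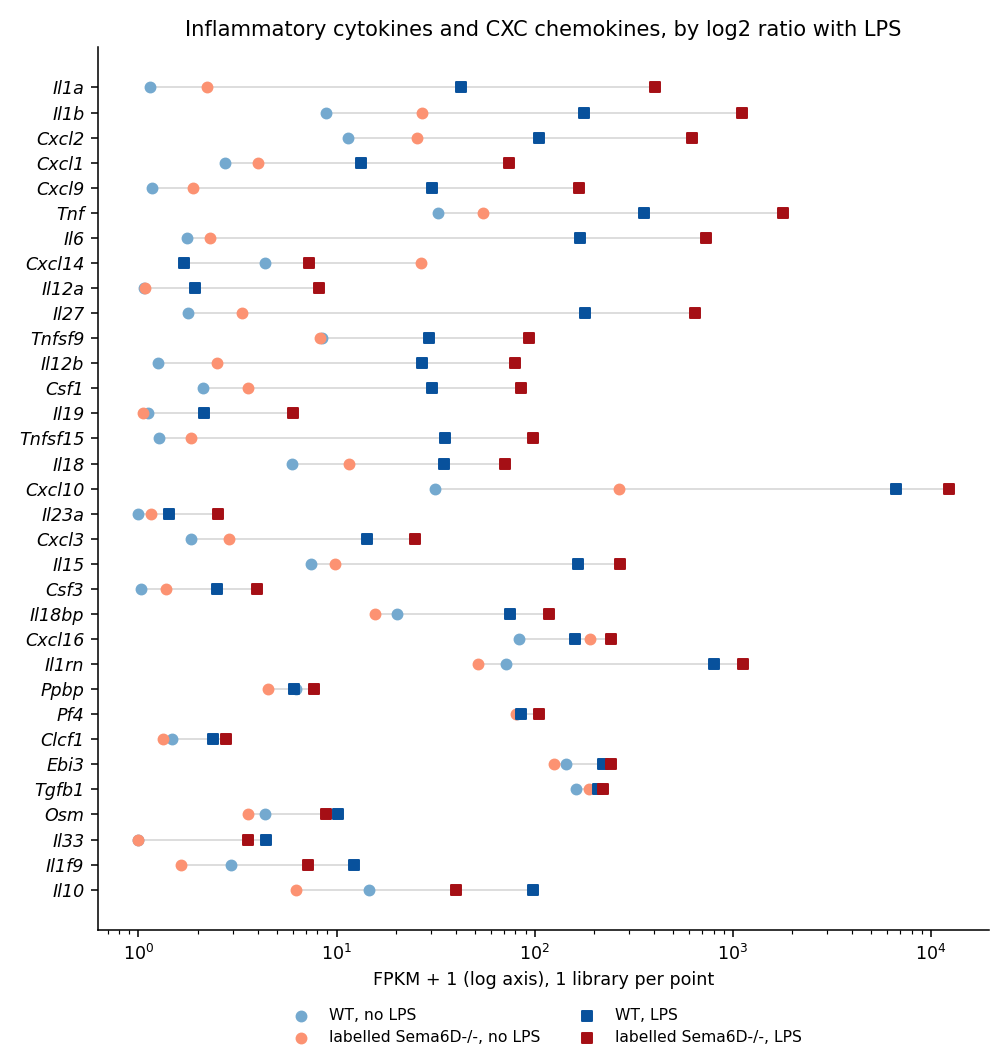
FPKM + 1 (log axis) of the measured inflammatory cytokine and CXC chemokine genes in the 4 libraries, 1 point per library, ordered by log2 ratio with LPS from Il1a (3.25) at the top to Il10 (-1.28) at the bottom. Circles are libraries without LPS and squares libraries with LPS, blue for WT and red for the label Sema6D-/-.

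Chemokine genes fall into families by the spacing of their cysteines. Of 9 CXC chemokine genes, 4 were higher and none was lower, with a median of 0.88. Those 4 were the neutrophil attractants Cxcl1 and Cxcl2, the interferon-gamma-inducible Cxcl9 and Cxcl14. Cxcl2 was at 105 FPKM in WT and 625 FPKM in the library labelled Sema6D-/-, a log2 ratio of 2.57, and Cxcl1 at 12.3 and 73.3 FPKM, a ratio of 2.49. Cxcl9 was at 29.3 and 166 FPKM (2.47). Cxcl10, the most abundant of the family, was within 2-fold with LPS, at 6696 and 12295 FPKM (0.88), whereas without LPS it was at 30.5 and 267 FPKM (3.09).

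Of 11 CC chemokine genes, 2 were higher and 2 lower, and their median of 0.15 became -0.07 on the common total. Ccl5 (RANTES) was at 2501 and 6314 FPKM, a log2 ratio of 1.34, and Ccl22, which attracts regulatory T cells, at 2.31 and 13.7 FPKM (2.15). Ccl6 was at 135 and 45.6 FPKM (-1.54), and Ccl8 at 17.7 and 6.26 FPKM (-1.37). On the common total 4 CC chemokine genes were lower.

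Promoters of 4 of the higher genes are shown because NF-kB, the factor that LPS activates, is known to act on them. The 250 bases before each start follow, 5′ to 3′ on the strand of the gene, from the RefSeq promoter table (GRCm38.p6). Capitals mark every match to the NF-kB pattern (GGG, any 5 bases, CC) on either strand, overlapping matches joined. Cxcl1 covers chr5:90890995-90891244 (plus strand), Cxcl2 chr5:90903649-90903898 (plus), Il6 chr5:30012864-30013113 (plus) and Tnf chr17:35202008-35202257 (minus).
Cxcl1: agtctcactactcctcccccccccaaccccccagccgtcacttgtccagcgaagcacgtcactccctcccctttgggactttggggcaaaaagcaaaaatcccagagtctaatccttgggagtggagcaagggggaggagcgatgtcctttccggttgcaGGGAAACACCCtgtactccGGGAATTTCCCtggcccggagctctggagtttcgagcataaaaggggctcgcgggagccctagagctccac
Cxcl2: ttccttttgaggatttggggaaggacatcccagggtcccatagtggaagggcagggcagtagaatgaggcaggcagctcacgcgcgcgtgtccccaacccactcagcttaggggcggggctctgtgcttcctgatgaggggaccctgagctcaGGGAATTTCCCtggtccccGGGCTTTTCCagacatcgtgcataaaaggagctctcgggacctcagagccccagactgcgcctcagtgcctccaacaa
Il6: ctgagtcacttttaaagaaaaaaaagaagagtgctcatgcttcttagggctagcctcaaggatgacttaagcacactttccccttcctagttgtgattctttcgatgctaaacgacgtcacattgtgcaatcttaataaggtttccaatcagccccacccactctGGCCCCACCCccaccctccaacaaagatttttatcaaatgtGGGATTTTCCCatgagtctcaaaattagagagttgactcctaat
Tnf: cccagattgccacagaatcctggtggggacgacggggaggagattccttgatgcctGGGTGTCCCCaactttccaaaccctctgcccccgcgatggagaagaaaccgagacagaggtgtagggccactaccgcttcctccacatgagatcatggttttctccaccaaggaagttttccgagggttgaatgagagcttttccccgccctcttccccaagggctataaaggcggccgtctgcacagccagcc

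The same 11-base run, GGGAATTTCCC, begins 71 bases before the start of Cxcl1 and 97 bases before that of Cxcl2, neighbouring genes on the same chromosome. A related run begins 44 bases before the start of Il6, and the match in Tnf lies 194 bases before its start.

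Across the windows from 250 bases before to 50 after the start, the NF-kB pattern was common in every set of genes. It was present in 68.7% of 198 higher genes with a promoter in the table, 70.0% of 213 lower genes and 68.3% of 7733 of the 9488 genes compared, against 50.4% of all 27025 promoters in the table. The interferon response pattern (GAAA, any 2 bases, GAAA) was present in 8.08% of the higher genes (16), 3.29% of the lower genes (7) and 3.59% of all compared genes with a promoter. It stood in 3.49% of the table. The AP-1 pattern TGANTCA was present in 6.57%, 9.86% and 5.03% of these, and in 7.93% of the table. Both strands were searched, and a match is a description of the letters only.

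The TLR pathway holds receptors, adaptors and NF-kB-induced brakes. Among 11 Toll-like receptor and co-receptor genes, only Cd14, the LPS co-receptor, passed 2-fold, at 686 and 1421 FPKM with LPS (1.05) and 257 and 565 FPKM without. Tlr4 was at 26.4 and 17.8 FPKM (-0.54). Of 35 adaptor, NF-kB and feedback genes, 4 were higher, where 2.84% of all genes were, and none was lower, with a median of 0.63. These were Tnfaip3, encoding the NF-kB brake A20, at 162 and 433 FPKM (1.41), Nfkbia, encoding IkB alpha, at 426 and 923 FPKM (1.11), Traf1 at 88.6 and 219.9 FPKM (1.30) and the cytokine-signalling inhibitor Cish at 5.35 and 14.6 FPKM (1.30). On the common total 3 of them remained past 2-fold, and Cd14 was within it.

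The TNF superfamily list held 5 higher and 2 lower genes of 18, Tnf among them. Cd40, the co-stimulatory receptor, was at 323 and 788 FPKM, a log2 ratio of 1.28, and Tnfsf8 (CD30 ligand) at 1.27 and 8.46 FPKM (2.06). Tnfsf4 (OX40 ligand) was lower, at 11.9 and 3.59 FPKM (-1.49). Among 19 genes of the IL-1 family and inflammasome, 5 were higher and none was lower, with a median of 0.68. Besides Il1a, Il1b and Il18 these were Nlrc4 and Nlrp1b, sensors that assemble inflammasomes. Nlrc4 was at 6.50 and 39.8 FPKM with LPS (2.44), and at 7.22 and 8.33 FPKM without, so that only the library labelled Sema6D-/- with LPS stood apart.

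Enzymes and secreted products with roles in inflammation were also among the higher genes. Ptgs2, the inducible cyclooxygenase, was at 6.29 and 5.67 FPKM without LPS and at 107 and 495 FPKM with LPS, a log2 ratio of 2.202. Nos2, the inducible nitric oxide synthase, was at 128 and 449 FPKM (1.80), and Slc7a2, a transporter of its substrate arginine, at 22.3 and 91.0 FPKM (1.98). Ptgs2 passed 2-fold with LPS only, and without LPS its ratio was -0.13. Whether the pairs with and without LPS differ could not be tested with 1 library each.

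Odc1, the first enzyme of polyamine synthesis, was lower, at 25.04 and 9.72 FPKM (-1.28), and shares 31.3% of its words with other genes. Arg1, the arginase of alternatively activated macrophages, stayed under 1 FPKM in every library. Immediate early genes went both ways, with 2 of 29 higher and 4 lower, where 2.84% and 2.76% of all genes were. Myc was at 12.9 FPKM in WT and 2.63 FPKM in the library labelled Sema6D-/- (-1.94), and Fosl1 at 7.59 and 1.16 FPKM (-1.99). Nr4a3 was at 2.58 and 8.99 FPKM (1.48).

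Type I interferon acts on the cells that make it and on their neighbours. Of 26 genes of interferon production and signalling none passed 2-fold, with a median of 0.45 that was 0.20 on the common total. Ifnb1 itself was at 21.2 FPKM in WT and 37.3 FPKM in the library labelled Sema6D-/- (0.78) and Irf7 at 949 and 1427 FPKM (0.59). Of 51 antiviral interferon-stimulated genes only Xaf1, a pro-apoptotic factor, was higher, at 74.1 and 381 FPKM (2.35), and none was lower. A count of 1 in 51 is near the 2.84% of all genes that were higher. The median of these genes was 0.40. Without LPS 14 of 51 measured genes of the list were higher, where 2.21% of all genes in that pair were.

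GTPases of cell-autonomous immunity restrict microbes inside the cell. Of 15 guanylate-binding and immunity-related GTPase genes 3 were higher, Gbp3, Gbp5 and Tgtp1, with a median of 0.64, and 1 was higher on the common total. Gbp5 was at 466 and 1109 FPKM with LPS (1.25) and at 2.70 and 17.3 FPKM without (2.31). Tgtp1 shares 84.4% of its 31-base words with another annotated gene, so its value is uncertain. In the PYHIN family of DNA sensors, Ifi205 was higher (1.06, at 327 and 683 FPKM), with 22.1% of its words shared. Ifi208 was among the lowest genes of all, at 151 and 1.30 FPKM (-6.04), with 34.0% of its words shared.

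MHC class II molecules present peptides to CD4+ T cells. Of 9 genes of the class II pathway measured, 4 were higher in the library labelled Sema6D-/- and none was lower, with a median of 0.80. H2-Ab1 was at 19.8 and 74.4 FPKM without LPS and 40.0 and 156 FPKM with LPS (1.94), and H2-Aa at 12.5 and 69.2 FPKM and at 26.5 and 107 FPKM (1.97). H2-Eb1 was at 10.4 and 45.2 FPKM with LPS (2.02), and Cd74, the invariant chain, at 248 and 623 FPKM (1.33). The peptide exchange genes H2-DMa and H2-DMb1 were within 2-fold, at 0.26 and 0.19.

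Dendritic cells also carry MHC class II, and H2-Eb1 stands in both lists. The dendritic cell list held 7 measured genes, of which Itgax (CD11c), Ccr7 and H2-Eb1 were higher and none was lower. Itgax was at 0.178 and 6.86 FPKM without LPS and at 0.349 and 16.3 FPKM with LPS (3.68). The list summed to 23.5 FPKM in WT and 77.5 FPKM in the library labelled Sema6D-/- with LPS. The defining markers Flt3, Zbtb46 and Clec9a did not exceed 0.358 FPKM in any library, Cd209a was at 0 and 0.0939 FPKM with LPS, and Batf3 was lower by less than 2-fold (-0.98). In bulk RNA, more cells of a type and more RNA per cell cannot be told apart.

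MHC class I and peptide loading genes held 3 higher and 1 lower of 18. The called H2-Q and H2-T genes share their words with other genes to differing degrees. H2-T24, which shares 6.43%, was at 78.3 and 328 FPKM with LPS (2.05). H2-Q6 (2.08), H2-Q7 (1.21) and H2-T22 (-1.13) share 50.3%, 39.1% and 51.0% of their words with other genes, so reads may be assigned unevenly among them.

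Neutrophil granule genes formed the list with the lowest median, -1.02, among lists of 5 or more measured genes. Of 17 measured, 9 were lower and 1 was higher. Without LPS 8 were lower, where 1.73% of all genes in that pair were. S100a8 and S100a9, the calprotectin subunits, were at 627 and 166 FPKM (-1.91) and at 417 and 113 FPKM (-1.88) with LPS. Without LPS they were at 409 and 103 FPKM and at 269 and 79.3 FPKM. The primary granule genes Elane, Prtn3 and Mpo were lower as well, at -1.60, -1.49 and -1.02, and so were Ngp (154 and 43.4 FPKM, -1.80) and Ltf (19.1 and 5.16 FPKM, -1.71).

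The 18 genes on the list, Ly6g included, summed to 1087 FPKM in WT and 579 FPKM in the library labelled Sema6D-/- without LPS. With LPS they summed to 1780.4 and 1104 FPKM. Ly6g, the marker of mature neutrophils, was at 0.275 and 0.418 FPKM with LPS. The exception was Hp (haptoglobin), higher at 97.3 and 310.3 FPKM with LPS (1.66) and at 28.3 and 189 FPKM without. Within 2-fold were 7 of the 17 measured genes. They were Lcn2, which macrophages also make (0.48), Csf3r (0.30), Retnlg (0.15), Camp (-0.12), Cxcr2 (-0.36), Mmp8 (-0.48) and Ctsg (-0.99). The part that granulocyte precursors in the cultures play in the lower genes was not tested.

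**Figure D3:**
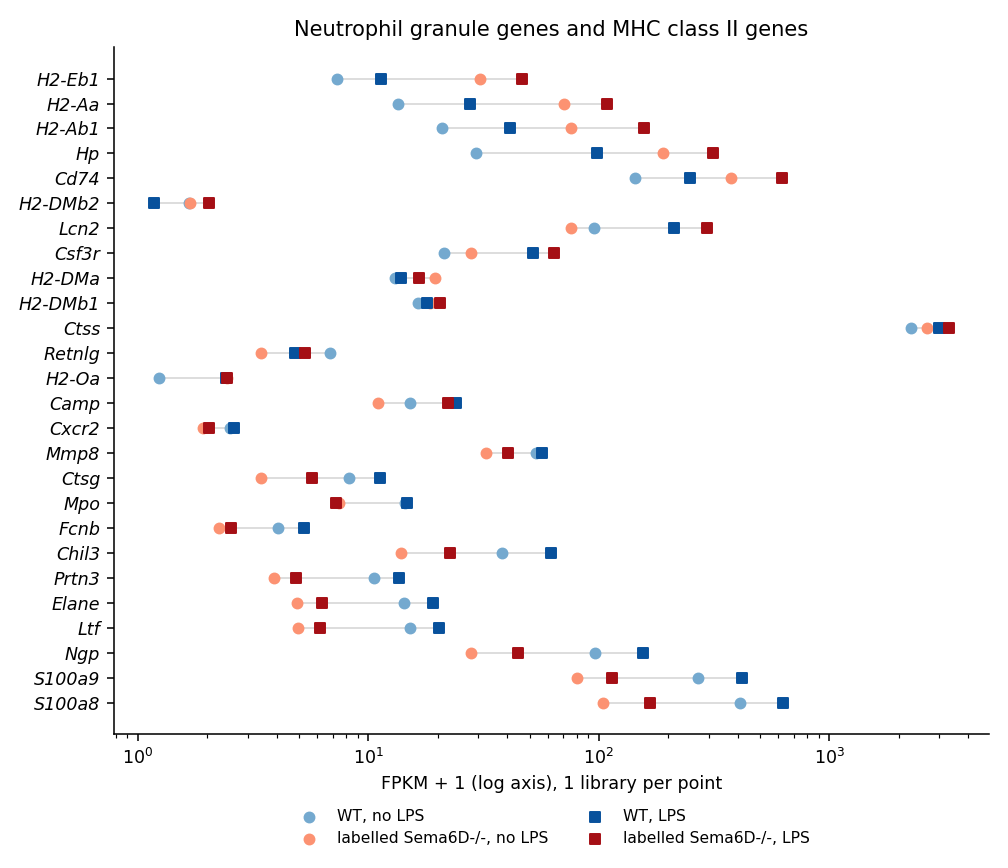
FPKM + 1 (log axis) of neutrophil granule and MHC class II genes in the 4 libraries, 1 point per library, ordered by log2 ratio with LPS. The MHC class II genes H2-Eb1 (2.02), H2-Aa (1.97) and H2-Ab1 (1.94) stand at the top and S100a8 (-1.91) at the bottom, and for these genes the 2 libraries labelled Sema6D-/- lie on the same side of the 2 WT libraries.

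Markers of further cell types were also read. Of 17 lymphocyte markers 2 reached 1 FPKM. Cd79b, a B cell receptor subunit, was lower, at 6.99 and 0.616 FPKM (-2.31), while Cd79a and Pax5 did not exceed 0.202 FPKM in any library. Of 10 monocyte and progenitor genes measured, 1 was higher and 2 were lower, with a median of 0.48. Among these, Ly6c2 was at 247 and 457 FPKM (0.88) and Ms4a3 at 3.19 and 0.746 FPKM (-1.26). The haemoglobin genes Hba-a1 and Hbb-bt were at 0 in all libraries.

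Among genes of lipid uptake and alternative activation, Cd36 had the lowest ratio. Cd36, the fatty acid and scavenger receptor, was at 277 and 22.1 FPKM without LPS and at 263 and 27.6 FPKM with LPS, a log2 ratio of -3.20 with LPS and -3.59 without. Pparg, the nuclear receptor that drives Cd36, was at 16.2 and 5.66 FPKM without LPS and at 7.11 and 2.81 FPKM with LPS (-1.09). The label Sema6D-/- went with the lower level of both genes in each pair.

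The rest of the PPARg list did not follow Cd36. Of its 25 measured genes 2 were lower and 2 were higher, where 2.76% and 2.84% of all genes were. Their median was -0.09. Fabp4, another PPARg target, was at 43.0 and 60.4 FPKM (0.48), and Lpl at 419 and 326 FPKM (-0.36). Acsl1, which activates fatty acids, was higher, at 103 and 305 FPKM (1.55).

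Of 16 alternative activation genes 4 were lower and 1 was higher, with a median of -0.10. Mrc1, the mannose receptor, was at 51.4 and 21.3 FPKM (-1.23), and Cd200r1, an inhibitory receptor, at 21.5 and 7.87 FPKM (-1.34). Chil3 (Ym1), at 61.0 and 21.6 FPKM (-1.45), also stands among the granule genes and shares 41.5% of its words with related genes. Il10 was the other lower gene, and Ccl22 the higher.

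LXR nuclear receptors drive cholesterol efflux. Of 19 LXR targets and efflux genes 2 were lower, Abca1 (34.3 and 15.9 FPKM, -1.07) and Pltp (317 and 148 FPKM, -1.09), and 3 were higher, with a median of -0.25. On the common total 5 were lower and 2 higher. The higher ones were Mertk, a receptor for apoptotic cells, at 14.9 and 61.3 FPKM (1.97), Srebf1 at 15.6 and 49.1 FPKM (1.59) and Stard4 (1.02). Among 20 sterol synthesis genes 1 was higher, where 2.84% of all genes were, and none was lower. Their median was 0.59. Sqle, a rate-limiting enzyme of the pathway, was at 6.29 and 12.9 FPKM (0.93).

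The mTOR pathway links growth factors and nutrients to metabolism. None of 40 mTOR signalling genes passed 2-fold, with a median of -0.05, and Mtor was at 4.93 and 5.62 FPKM (0.16). On the common total 1 of them was lower. Of 47 respiratory chain genes only Cox7c passed 2-fold, on 7 fragments in WT and 0 in the other library, with 24.5% of its words shared. Of 28 glycolysis and hypoxia genes 2 were higher and 2 lower, where 2.84% and 2.76% of all genes were. Their median was 0.32. Slc2a6, a hexose transporter, was at 186 and 521 FPKM (1.48), and Ndrg1 at 105 and 33.5 FPKM (-1.62).

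Semaphorin, plexin and neuropilin genes were all within 2-fold, 16 measured, with a median of 0.16 that was -0.09 on the common total. Plxna1, a class A plexin, was at 36.6 and 40.1 FPKM (0.13), and Plxna4 did not exceed 0.0534 FPKM in any library. Nrp2 was at 141 and 267 FPKM (0.91), and Sema4d at 175 and 289 FPKM (0.72).

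Surface receptor genes were called in both directions. Of 29 chemoattractant receptor and RGS genes 7 were higher and 1 lower, where 2.84% and 2.76% of all genes were. Hcar2, the niacin receptor, was at 23.6 and 80.7 FPKM (1.73), Ccrl2 at 264 and 843 FPKM (1.67) and Gpr84, a receptor for medium-chain fatty acids, at 256 and 619 FPKM (1.27). Gpr84 was further apart without LPS, at 12.6 and 112 FPKM (3.05), as was Clec4e (Mincle), a receptor for mycobacterial glycolipid, at 34.6 and 318 FPKM without LPS (3.16) and 732 and 2002 FPKM with LPS (1.45). Fpr2 (1.45) shares 43.0% of its words with related receptor genes.

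Adhesion genes were mixed, with 4 of 24 higher and 3 lower. Icam1, the ligand of leukocyte integrins, was at 355 and 765 FPKM (1.10), and Itga4 at 59.8 and 151 FPKM (1.32). Itga6, the laminin-binding integrin chain, was at 18.0 and 4.81 FPKM (-1.71). Thbs1 (thrombospondin-1), a ligand of CD36, was at 89.1 and 26.5 FPKM (-1.71), and the immunoglobulin-like receptor gene Cd300lb at 15.6 and 2.27 FPKM (-2.34) with LPS while near level without LPS (92.0 and 79.6 FPKM, -0.21).

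The single genes at the ends of the ranking were not all immune genes. The highest was Gdpd3, a lysophospholipase D, at 0.515 and 29.3 FPKM with LPS (4.32) and 0.636 and 26.8 FPKM without (4.09). Elavl4, a neuronal RNA-binding protein, was at 0.0417 and 8.95 FPKM, on 3 and 537 fragments, and Il4i1, an amino acid oxidase, at 3.03 and 31.1 FPKM. Tagap1 (3.86), Pakap (3.48) and Ugt1a6b (3.17) share 79.9%, 97.8% and 84.2% of their words with other genes and are uncertain. In all, 4 of the 30 highest and 7 of the 30 lowest genes share over 20% of their words, against 6.11% of the 9488 genes.

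The lowest gene was Atp6v0c, a proton pump subunit, at 87.0 and 0.235 FPKM without LPS and at 102 and 0.381 FPKM with LPS (-6.22). It shares 11.9% of its words with another annotated gene, and whether its reads were assigned elsewhere in the libraries labelled Sema6D-/- was not tested. The remaining 15 measured subunits of the pump were within 2-fold. Of the 41 ribosomal protein genes, Rpl3 (24.8 and 0.260 FPKM, -4.36), Rps2 (90.3 and 5.29 FPKM, -3.86) and Rplp0 (273 and 125 FPKM, -1.12) were lower, and the other 38 were within 2-fold. These ribosomal genes share 37.6%, 48.8% and 42.8% of their words with other genes. For Hmga1b and Eif3j2, which share 92.7% and 94.9%, no fragment was seen in the library labelled Sema6D-/-, where a floor of 3 fragments makes them at least 107-fold and at least 60.1-fold lower.

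Several lower genes of high level shared no words with other genes. Slc13a3, a dicarboxylate transporter, was at 577 and 57.6 FPKM with LPS (-3.30) and at 465 and 59.9 FPKM without. Cd5l, a secreted scavenger protein of macrophages, was at 217 and 29.99 FPKM with LPS (-2.82) and at 229 and 28.3 FPKM without (-2.98). For both genes the libraries fell into low and high by genotype label, with and without LPS.

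The pair without LPS shares no library with the pair with LPS. It had 9689 genes, of which 382 (3.94%) were apart, 214 (2.21%) higher and 168 (1.73%) lower. Of the genes higher with LPS, 95 were higher without, 35.3% of 269 and 44.4% of 214. Of the lower genes, 113 were lower without LPS, 43.1% of 262 and 67.3% of 168. The genes higher with LPS had a median log2 ratio without LPS of 0.74, and 241 of 269 had a positive ratio there. The lower genes had a median of -0.92, and 256 of 262 had a negative ratio. The share of all compared genes with each sign without LPS was not counted, so these sign counts have no background beside them.

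Of the 269 higher genes 50 were under 1 FPKM in both libraries without LPS, and 9 of the 262 lower genes were. The same share over all compared genes was not counted. Tnf, Ptgs2 and Nlrc4 were past 2-fold with LPS only. So were Il6 and Il12a, but without LPS these were at 0.759 and 1.28 FPKM and at 0.0604 and 0.0832 FPKM. At such levels the added 1 FPKM shrinks the ratio, and Il12a could not have been called in that pair. Gdpd3, Itgax, Xaf1, Hp and the 4 called MHC class II genes were past it in both pairs, as were Cd36, Atp6v0c, Slc13a3, Cd5l, S100a8 and Chil3 among the lower genes.

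**Figure D4:**
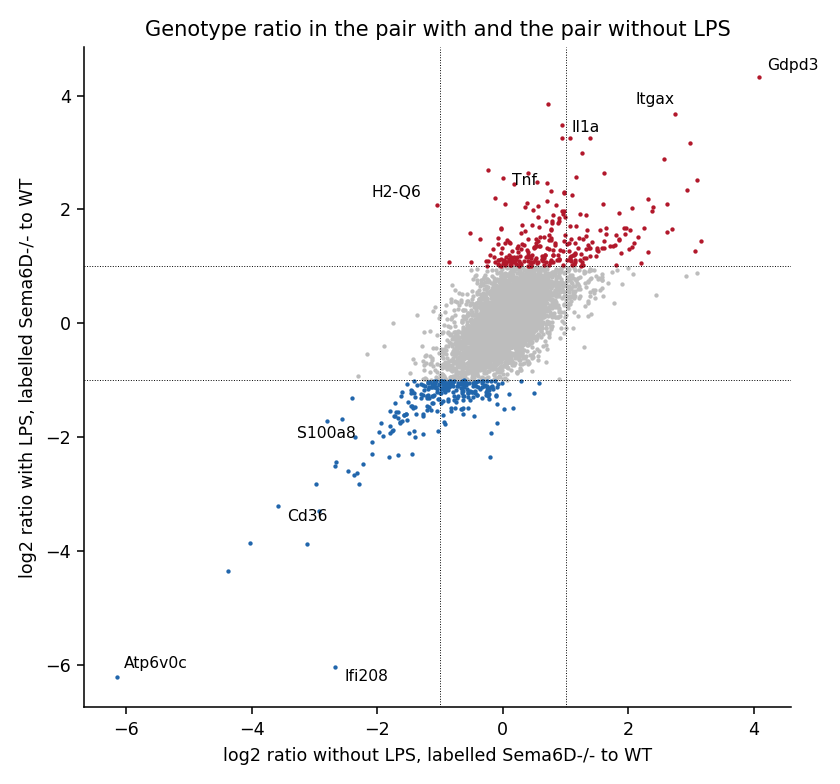
Genotype log2 ratio (label Sema6D-/- over WT) with LPS (vertical) against the same ratio without LPS (horizontal) for the 9488 genes, 1 point per gene, coloured as in the plot of levels, with dotted lines at 2-fold. Il1a (3.25 and 0.94) and Tnf (2.33 and 0.76) lie above the 2-fold line with LPS only. Without LPS Il1a was at 0.146 FPKM in WT and 1.21 FPKM under the label Sema6D-/-, where the added 1 FPKM shrinks its ratio. Cd36 (-3.20 and -3.59) and Atp6v0c (-6.22 and -6.15) lie near the same value in both pairs.

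By position, the share of higher genes ran from 1.08% on chromosomes 11 and 19 to 5.25% on chromosome 17 (27 of 514). Chromosome 17 carries the MHC, and chromosome 18 had nearly the same share, 5.06% (12 of 237). Runs of 3 or more adjacent called genes in the GRCm38.p6 gene order were Fcrls, Cd5l, Fcrl1 and Fcrl5 on chromosome 3 (lower), H2-Ab1, H2-Aa and H2-Eb1 on chromosome 17 (higher), and Ambp, Orm1, Orm2 and, separately, Tnfsf15, Tnfsf8 and Tnc on chromosome 4 (higher). Fcrls, an Fc receptor-like gene of macrophages and microglia, was at 219 and 43.8 FPKM (-2.29). Orm1 and Orm2 were counted on 21 or fewer fragments and share 27.5% and 34.1% of their words with other genes.

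Around Sema6d on chromosome 2, 16 of the 20 nearest genes, 10 on each side, were measured and 3 of these were higher. On all of chromosome 2, 27 of 786 genes (3.44%) were higher, and 2.84% of all genes were. Gatm, which makes the creatine precursor guanidinoacetate, was at 27.8 and 71.4 FPKM (1.33), and Bloc1s6 at 12.8 and 47.0 FPKM (1.80). Slc28a2b was at 0.0419 and 8.90 FPKM (3.25), on 3 and 521 fragments, and shares 39.4% of its words. None was lower. A part played by sequence around the targeted gene was not tested.

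**Figure D5:**
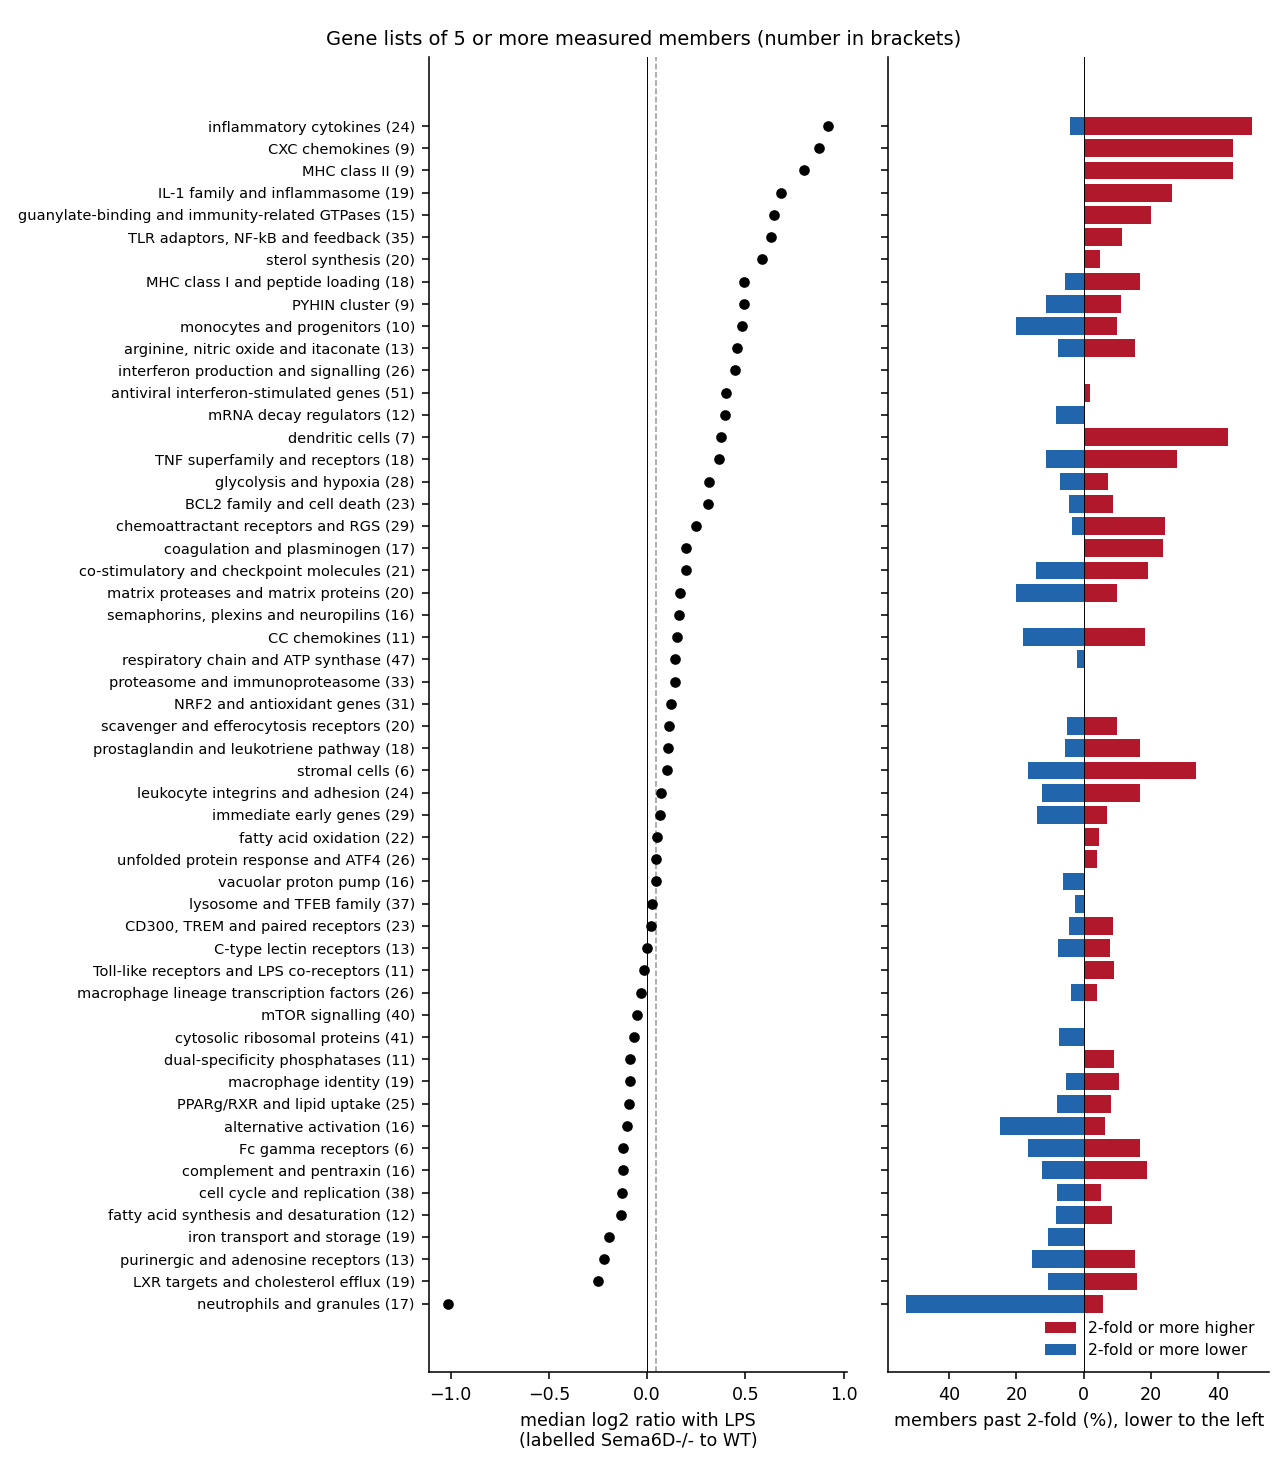
Median log2 ratio with LPS (left panel, dashed line at the median of all 9488 genes, 0.04) and percent of members past 2-fold (right panel, higher in red to the right, lower in blue to the left) for each gene list with 5 or more measured members. Inflammatory cytokines (0.92), CXC chemokines (0.88) and MHC class II (0.80) stand at the top and neutrophil granule genes (-1.02) at the bottom.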

How the data were processed

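Poly(A) mRNA from 4 mouse macrophage libraries, 1 per group, was sequenced, and the labels name both RNeasy and Trizol for RNA extraction. The authors deposited FPKM per RefSeq transcript, with Cuffnorm 2.2.1, TopHat2 2.0.13, Bowtie2 2.2.3 and SAMtools 0.1.19 named, on mm9, per the submitters' processing notes. Groups were taken from the titles, because LPS appears in the treatment text of all samples.

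Of 34487 transcripts, 34163 were named from the RefSeq table (GRCm38.p6) and 187 from GENCODE vM21, and 137 were left out. FPKM was summed per symbol, and 5540 genes had several transcripts. Ratios were log2 with a pseudocount of 1 FPKM. A gene was included at 1 FPKM in either library and called at 2-fold. No test was possible with 1 library per group. The members of the comparison and the 57 gene lists were chosen with earlier results of these data known, and some genes stand in several lists.

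Fragments were estimated from the steps of low FPKM values, which fell on whole multiples of a step within 0.1 for 71.1 to 72.4% of low values against 20% by chance, taking a fragment length of 210 nt. The step search was tested on simulated data. Exact 95% Clopper-Pearson intervals of these counts cover counting error only. Words of 31 bases shared with another GENCODE gene, readthrough genes included, marked genes that have sequence in common with another gene. Genes were named by rule: 20 chosen genes, the 30 highest and 30 lowest at 5 FPKM or more, up to 5 per list with the largest ratio, and the 10 on each side of Sema6d. Other genes named, most of them cell type markers or lower-ranked members of a list, were chosen after their values were seen. Python 3 with numpy, pandas, scipy and matplotlib was used. Alternatives covered the pseudocount, filter, scaling, size rule and choice of genes. Some items are not reported here.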

Additional observations from a re-analysis of the deposited data

Results flagged for a closer look

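H2-Q6, a non-classical MHC class I gene, was the only gene called in opposite directions in the 2 pairs. Its log2 ratio was 2.08 with LPS, at 2.44 FPKM in WT and 13.5 FPKM in the library labelled Sema6D-/-, and -1.05 without LPS, at 1.19 and 0.0608 FPKM. The difference between the pairs was not tested, and 50.3% of its 31-base words occur in other annotated genes.

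Y-linked genes lay outside the comparison of autosomal genes and were found only in the libraries labelled Sema6D-/- at 1 FPKM or more. With LPS, Ddx3y was at 16.6 FPKM, Eif2s3y at 50.4 FPKM, Kdm5d at 3.36 FPKM and Uty at 3.79 FPKM there, against 0, 0, 0 and 0.00984 FPKM in WT. The part of sex in the autosomal differences was not tested.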

How the results depend on the processing

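Under every alternative tried, no called value of the chosen, 30 highest and 30 lowest genes and no list median past 2-fold changed sign. A pseudocount, filter or size rule cannot turn the sign of a single ratio. The 3 scalings shifted the median over all genes by -0.22, -0.07 and -0.08, little against a 2-fold ratio. This outcome was therefore largely fixed in advance. With a pseudocount of 0.1 FPKM, 415 genes were lower and 328 were apart the same way in both pairs, against 262 and 208. Scaled to a common FPKM total, 153 genes were higher in place of 269, and the median over all genes was -0.18 in place of 0.04. With symbols of 1 transcript only, 177 genes were higher, 168 lower and 130 apart the same way in both pairs. At 1.5-fold these counts were 922, 698 and 685, and at 3-fold 74, 57 and 56. The cause was not tested, except that a size rule or fewer genes change counts by construction. The common total, median centring or trimmed mean turned the sign of 18 of 57 list medians, all within 0.2 of 0. Without genes that share over 20% of their words, an alternative chosen after seeing the data, 244 genes were higher and 238 lower, and with 50 or more fragments 261 and 249. Of the values of those genes under the alternatives, 670 moved by less than their counting interval and 96 by more, and 526 list medians moved by 0.1 or less and 101 by more. No paired analysis was possible because each group had 1 library and the labels give no replicate numbers, and for the same reason no replicate could be left out. Depth limits genes with few fragments, such as Cox7c and Orm1.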
